A study of Mus musculus with 24 samples.

Results

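The cytosolic ribosomal protein genes were followed in the blood of young and old mice after x-ray exposure, separately for the large (Rpl) and the small (Rps) ribosomal subunit. Members were the genes whose symbol on the array was Rpl or Rps with a number and at most one further letter (a, x, y or l) and digit, together with Rplp0, Rplp1, Rplp2 and Rpsa, and without Rps27l. The rule found 83 of the 29742 genes on the array, 51 for the large subunit and 32 for the small subunit. Of these, 81 lay above the background filter and 77 (47 large, 30 small) passed both filters and were tested among 17472 genes. Pseudogenes and other symbols that do not follow this pattern were not members.

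Gene expression was measured by one-colour microarray in whole blood of male C57BL/6J mice in 4 groups of 6 mice. Young mice were 2 months old and old mice 21 months old, and at each age one group received 4 Gy of x-rays and the other was left unirradiated (control). Blood was taken by cardiac puncture 24 h after exposure and lysed at once in PAXgene solution, so that all blood cells contributed to the RNA. Globin RNA was then reduced with a depletion kit, and the red cell marker list used below includes globin genes. Levels are given as the log2 of the processed signal minus the median of the array, and they serve to compare the same gene between mice, since probes of different genes differ in brightness for technical reasons. Genes were tested with limma, and a gene was called when its p was under 0.005 and its p adjusted by Benjamini-Hochberg over all genes tested was under 0.05. In whole blood, fewer cells of a type and less RNA per cell cannot be told apart.

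Ribosomal proteins coat the ribosomal RNAs of the large subunit, where peptide bonds are formed, and of the small subunit, where the mRNA is decoded. Their mRNAs are among the most abundant of most cells, and most of them start with a run of pyrimidines at the cap, the terminal oligopyrimidine (TOP) motif, through which the mTOR pathway sets their translation and stability. In blood, resting lymphocytes, platelets and reticulocytes all hold these mRNAs, and loss of a single copy of some of these genes causes Diamond-Blackfan anemia, a failure to make red cells.

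The start of the gene is where the TOP motif lies. The 30 bases around the annotated start (15 on either side, on the strand of the gene, RefSeq, GRCm38.p6) are shown for the 3 largest called falls in young mice (Rps27, Rpl18 and Rps15), for 2 of the 3 largest called falls in old mice (Rpl14 and Rps18), and for the 3 members with the smallest changes in young mice (Rps12, Rpl39 and Rpl41). Capitals mark a run of at least 8 C or T bases.
Rps27, chr3:90213634-90213663, minus strand: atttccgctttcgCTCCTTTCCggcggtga
Rpl18, chr7:45718056-45718085, plus strand: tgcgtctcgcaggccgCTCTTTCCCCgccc
Rps15, chr10:80292416-80292445, plus strand: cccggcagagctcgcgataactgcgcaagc
Rpl14, chr9:120571502-120571531, plus strand: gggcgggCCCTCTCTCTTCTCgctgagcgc
Rps18, chr17:33955651-33955680, minus strand: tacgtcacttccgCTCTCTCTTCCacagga
Rps12, chr10:23787195-23787224, minus strand: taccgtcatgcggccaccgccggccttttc
Rpl39, chrX:37085208-37085237, minus strand: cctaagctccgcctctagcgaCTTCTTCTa
Rpl41, chr10:128549154-128549183, minus strand: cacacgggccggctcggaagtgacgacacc
Of the 62 members with a promoter in the RefSeq table, 27 (43.5%) had such a run in this window, against 3759 of all 27018 genes (13.9%). It was present for 19 of 39 large subunit members (48.7%) and 8 of 23 small subunit members (34.8%). A window without the run, as for Rps15, Rps12 and Rpl41, says only that these letters are not within 15 bases of the annotated start.

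Among the old irradiated mice, mice 4 and 6 stood apart. The spread of log2 differences over genes (scaled median absolute deviation) between either of them and any other mouse was 1.15 to 2.07, against 0.147 to 0.972 for the other pairs of mice within a group and 0.263 between the 2 of them. Their median signals were 8.66 and 8.84, whereas those of the other 22 arrays lay between 14.4 and 44.8. Results that rest on them are therefore given with and without them. In addition, the 6 slides of 4 arrays held mostly 1 group each. One slide held 2 unirradiated and 2 irradiated young mice and another did so for old mice, but no slide held both ages and the scan day separated young from old, so that age and scan day cannot be told apart. Markers of blood cells were detected on the arrays, and so were some markers of hepatocytes. All 10 B cell, 10 T cell, 11 neutrophil and 8 platelet markers listed passed the background filter, as did the 10 of 13 red cell and the 8 of 9 monocyte markers that were on the array by name. Well above background on all 24 arrays were 7 B cell, 8 T cell, 9 neutrophil, 8 platelet, 9 red cell and 8 monocyte markers. Of 10 hepatocyte markers 6 passed the filter, and 2 were well above background on all arrays. Their mean level was 10.49, 11.68 and 10.67 in young irradiated mice 2, 4 and 5, and 10.16, 10.48 and 10.74 in old irradiated mice 2, 3 and 5. It was 7.59 in young unirradiated mouse 5 and -0.42 to 4.93 in all other mice.

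In young mice, most ribosomal protein mRNAs fell after irradiation. Of the 77 members tested, 53 were called lower, 30 of 47 for the large subunit and 23 of 30 for the small subunit, where 21.4% of all genes tested were called lower. Only Rps4l was called higher, against 14.4% of all genes. The median change was -0.64 on the log2 scale over the members, -0.60 for the large and -0.75 for the small subunit, beside -0.20 over all genes. The log2 change was below 0 for 74 of the 77 members. An unadjusted p below 0.05 was found for 69 members and for 9370 of all 17472 genes tested. For 44 members every irradiated young mouse lay below every unirradiated one, which was so for 15.4% of all genes.

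**Figure D1:**
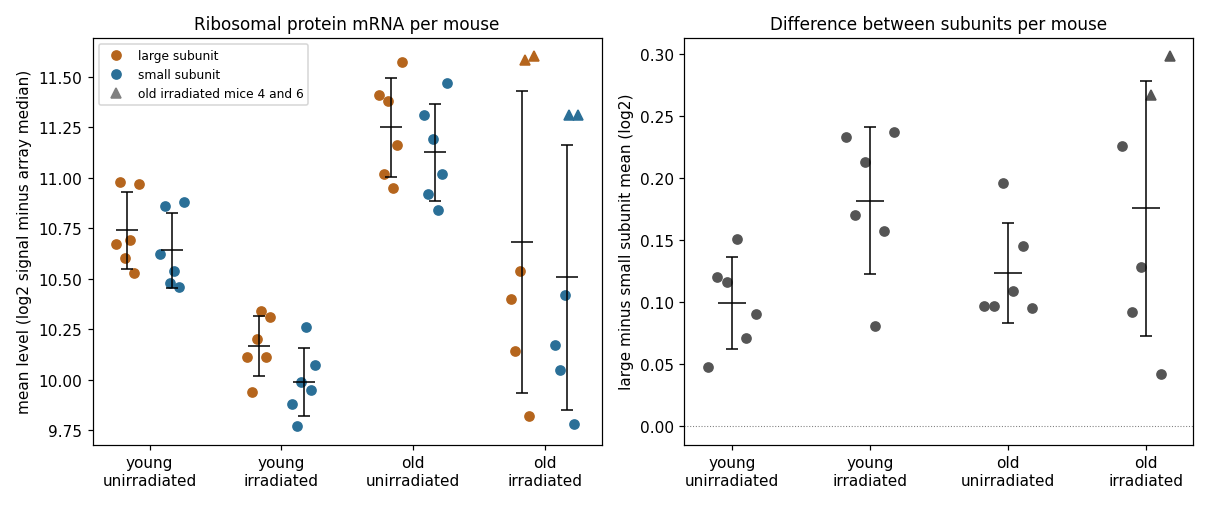
Mean level of the large and small subunit genes in each mouse (left, log2 signal minus array median) and the large minus small difference (right), by group, with mean and SD as bars over 6 mice; triangles are old irradiated mice 4 and 6. Irradiated young mice lay at 9.87 to 10.31 over all members, below the unirradiated young mice at 10.5 to 10.93, while old irradiated mice 4 and 6 lay at 11.47 and 11.48.

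Averaged over the 78 members well above background on all arrays (46 large, 32 small), the level was 10.7 ± 0.188 (SD, n = 6) in unirradiated and 10.09 ± 0.155 (SD, n = 6) in irradiated young mice, and the groups did not overlap (10.5 to 10.93 against 9.87 to 10.31). The mean of the large subunit genes minus that of the small subunit genes has no meaning as an amount, but it can be compared between mice. It was 0.0994 ± 0.0371 (SD, n = 6) in unirradiated young mice, with a range of 0.048 to 0.151. In irradiated young mice it was 0.182 ± 0.0596 (SD, n = 6), with a range of 0.0803 to 0.237. The shift of 0.0824 towards the large subunit was small beside the fall of both, and the groups overlapped. Over the 49 members in the table of the authors' normalised values the shift was -0.0468 in those values. It was -0.0363 in the processed signals of the same 49 members.

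Rps27, a small subunit protein with a zinc finger, had the largest called fall. Its level ran from 11.84 to 12.55 (median 12.06) in unirradiated young mice and from 10.62 to 11.37 (median 10.99) in irradiated ones. Every irradiated mouse lay below every unirradiated one. The level fell by 1.13 (SE 0.177, limma adjusted p = 0.000254). On the array design the probe of Rps27 is placed on another chromosome than the gene in RefSeq, as is that of Rps29, whereas the chromosomes were the same for 79 of 81 members.

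Rps15, in the head of the small subunit, ran from 10.91 to 11.37 (median 11.09) without and from 9.66 to 10.8 (median 9.97) with irradiation in young mice. The groups were separate, with mouse 4 the highest of the irradiated ones. The fall was 2.12-fold (limma adjusted p = 0.000486).

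Rpl18, a large subunit protein and one of the Diamond-Blackfan anemia genes, ran from 9.79 to 10.13 (median 10.05) in control and from 8.73 to 9.21 (median 8.88) in irradiated young mice. No irradiated mouse reached the control range. This fall was of 2.11-fold and had the lowest adjusted p of any member (SE 0.13 on the log2 scale, limma adjusted p = 4.36e-05).

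Rps4x, the working copy of the gene for the small subunit protein eS4, fell with them. It lay at 10.17 to 10.62 (median 10.38) in control and at 9.23 to 9.75 (median 9.36) in irradiated young mice. The groups were separate and the log2 change was -0.97 (limma adjusted p = 0.000119). Its relative Rps4l, which RefSeq lists as a transcribed pseudogene, moved the other way from a far dimmer probe. Rps4l lay at 1.99 to 3.32 (median 2.64) in control and at 3.16 to 4.06 (median 3.48) in irradiated young mice. The ranges overlapped at their ends, and the log2 change was 0.89 (SE 0.234, limma adjusted p = 0.00722). It lost its call in 6 of the 12 fits that left out 1 mouse, with changes of 0.76 to 1.02.

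**Figure D2:**
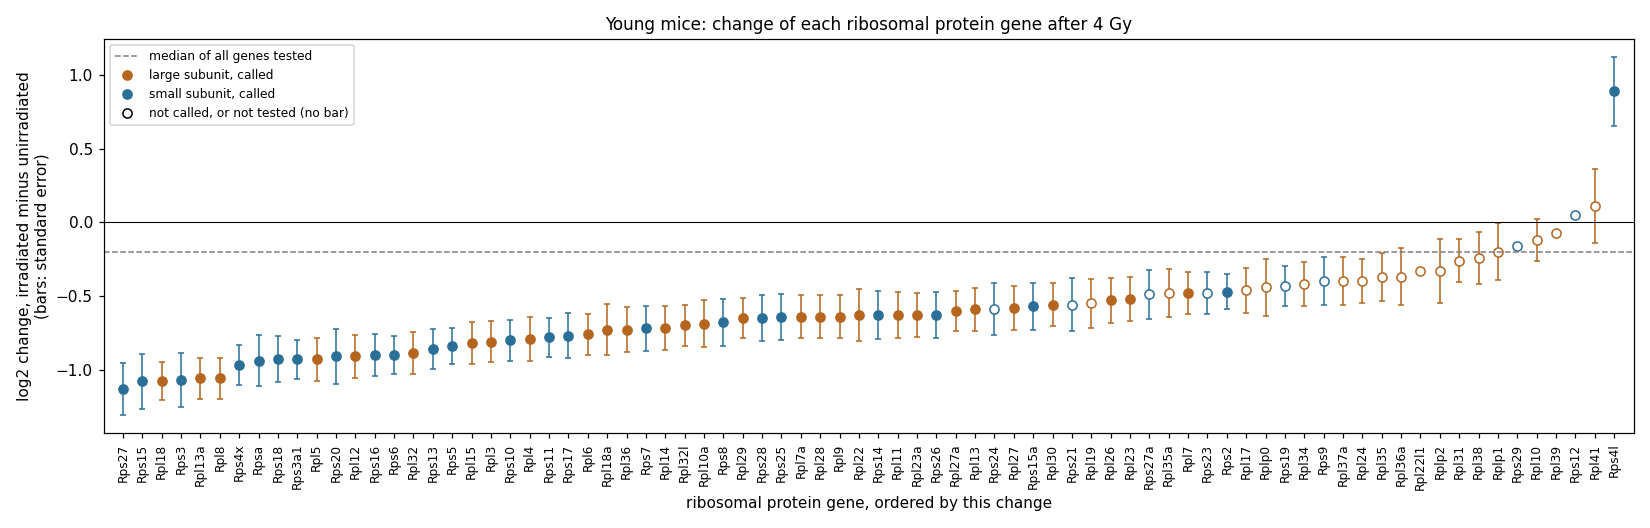
Log2 change after 4 Gy in young mice (vertical axis, 6 irradiated minus 6 unirradiated mice, bars are standard errors) for each of 78 members on the horizontal axis, ordered by that change; filled points were called, open points were not or were not tested, and the dashed line is the median of all genes tested at -0.20. The order runs from Rps27 at -1.13 to Rps4l at 0.89, with Rpl41, Rps12, Rpl39 and Rpl10 near 0.

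In the stalk of the large subunit, which recruits elongation factors, 1 of 4 members was called lower in young mice (median -0.39). Of all large subunit members 30 of 47 were, and of all genes 21.4%. Rpl12, which binds the base of the stalk, lay at 10.84 to 11.47 (median 11.05) in control and at 10 to 10.42 (median 10.21) in irradiated young mice. The groups were separate and the level fell by 0.91 (limma adjusted p = 0.000311). Rplp0, Rplp1 and Rplp2, which form the stalk itself, were not called, and in each of them the groups overlapped. Their log2 changes were -0.44 (adjusted p = 0.0749) for Rplp0, -0.20 (adjusted p = 0.423) for Rplp1 and -0.33 (adjusted p = 0.238) for Rplp2.

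The 2 proteins that travel with the 5S ribosomal RNA, Rpl5 and Rpl11, can bind Mdm2 when they are not in a ribosome, and both of their mRNAs fell. Rpl5 lay at 8.56 to 9.09 (median 8.94) in control and at 7.66 to 8.28 (median 7.93) in irradiated young mice. These ranges did not overlap, and the level fell by 0.93 (limma adjusted p = 0.000285). Rpl11 lay at 10.33 to 10.77 (median 10.44) and at 9.61 to 10.38 (median 9.79), overlapping at their ends, and fell by 0.63 (limma adjusted p = 0.00526). Among the other genes listed for the p53 response, in which p53 raises its own inhibitor Mdm2, 4 of 6 rose and 1 fell in young mice. Of all genes 14.4% were called higher and 21.4% lower. Cdkn1a, the cell cycle inhibitor p21, rose by 5.06 on the log2 scale, Phlda3 by 3.24 and Mdm2 by 0.89, while Trp53 itself had a log2 change of -1.19 and was called.

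Rps27l, the one close relative left out of the membership, is a target of p53 and was the fourth of these genes to rise. It lay at 5.84 to 6.2 (median 6.07) in control and at 6.74 to 8.28 (median 7.61) in irradiated young mice. All irradiated mice lay above all control mice, opposite to Rps27, and the log2 change was 1.53 (SE 0.239, limma adjusted p = 0.000258). In old mice the ranges of Rps27l overlapped, at 6.38 to 7.13 without and 6.61 to 8 with irradiation, and its log2 change was 0.42 (adjusted p = 0.257). Without old irradiated mice 4 and 6 the change was 0.70 (SE 0.212, adjusted p = 0.0181), still short of the call on its p.

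By place in the small subunit, 10 of 12 members of the head were called lower in young mice (median -0.82) and 5 of 6 of the platform and mRNA exit (median -0.63). Over the whole small subunit it was 23 of 30, and over all genes 21.4%. Rpsa, also known as the laminin receptor, sits at the mRNA exit. It lay at 11.76 to 12.27 (median 12.05) in control and at 10.83 to 11.73 (median 10.97) in irradiated young mice, with mouse 4 the highest of the latter. The groups were separate and Rpsa fell by 0.94 (limma adjusted p = 0.000745). Rps14, of the platform, fell by 0.63 (limma adjusted p = 0.00632), and its ranges of 12.33 to 12.94 and 11.66 to 12.24 did not overlap.

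At the exit of the peptide tunnel of the large subunit, 3 of 7 members were called lower (median -0.53), beside 30 of 47 of all large subunit members. Rpl22, which also binds RNAs outside the ribosome, was one of them. It lay at 9.29 to 10.3 (median 9.79) in control and at 8.94 to 9.41 (median 9.1) in irradiated young mice, overlapping in part, and fell by 0.63 (limma adjusted p = 0.0108). Its paralog Rpl22l1 was not tested, because it moved past 1.5-fold from its median on only 4 arrays, and had a log2 change of -0.33. Among other parent genes with paralogs, Rpl3, close to the peptidyl transferase centre, fell by 0.81 (limma adjusted p = 0.000536), and Rpl7 fell by 0.48 (limma adjusted p = 0.0133). Rpl10, which joins the large subunit late in its maturation, lay at 11.62 to 12.19 and 11.43 to 11.91 and was not called (log2 change -0.12, adjusted p = 0.512).

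Of the paralogs, Rpl3l, Rpl10l, Rpl7l1 and Rpl39l were dim here. Rpl3l, known from heart and skeletal muscle, was well above background on 0 of 24 arrays, and Rpl10l, known from testis, on 2. Neither passed the background filter, so neither has a gene-level value here. Rpl7l1, well above background on 21 of 24 arrays, lay at 0.49 to 1.45 in control and 0.06 to 1.36 in irradiated young mice. It was not called. Rpl39l was well above background in 2 control and 4 irradiated young mice, with a log2 change of 1.57 that was not called (limma adjusted p = 0.0212).

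A few bright members moved little. Rpl41, which encodes a very short peptide of the large subunit, lay at 12.63 to 13.35 (median 13.02) in control and at 12.52 to 13.88 (median 13.11) in irradiated young mice. The ranges overlapped throughout, and the log2 change was 0.11 (SE 0.25, adjusted p = 0.741). Rps12, Rpl39 and Rps29 moved past 1.5-fold on only 4 arrays each, and so were not tested. Rps12, a head protein, had a log2 change of 0.05, from 11.5 to 12.33 in control to 11.57 to 12.32 in irradiated young mice. The change was -0.07 for Rpl39, at the wall of the exit tunnel, and -0.16 for Rps29. Rpl37a at -0.40 (adjusted p = 0.0584) and Rps24 at -0.59 (adjusted p = 0.0147, unadjusted p above 0.005) were not called either.

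Of 18 members tested that are Diamond-Blackfan anemia genes, 13 were called lower in young mice, with a median of -0.63. That share was near the 53 of 77 over all members. Rps19, the gene in which this anemia was first traced, was among the 5 that were not. It lay at 8.93 to 9.43 (median 9.26) in control and at 8.66 to 9.1 (median 8.76) in irradiated young mice, with overlap. Its log2 change was -0.43 (adjusted p = 0.0194), and its unadjusted p was above 0.005.

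Members with and without the run of pyrimidines overlapped in their change in young mice. The median log2 change was -0.60 for the 27 members with the run (range -1.13 to -0.07) and -0.63 for the 33 without it that had a value (range -1.08 to 1.57, the highest being the dim Rpl39l). Other mRNAs with a TOP motif, listed from general knowledge of elongation factors and their partners, were called lower for 11 of 16 (median -0.61). Over all members it was 53 of 77, and over all genes 21.4%. Eef1a1, the factor that brings aminoacyl-tRNA to the ribosome, had a log2 change of -0.62, and Pabpc1, the poly(A) binding protein, of -1.21, both called. Tpt1 at -0.05 was not called. Of 11 regulators of TOP mRNAs, 3 were called lower, beside 21.4% of all genes: Mtor at -1.09, Mlst8 at -0.97 and Tsc1 at -0.61. Eif4ebp1, a repressor of cap-dependent translation, was the only 1 called higher, at 1.10, beside 14.4% of all genes.

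Ribosome biogenesis factors, which make and assemble the subunits, were called lower for 26 of 36 tested, with a median of -0.63, beside 21.4% of all genes. Among these factors Nop56, a core protein of the box C/D particles that modify ribosomal RNA, had a log2 change of -1.13, and Ubtf, which activates ribosomal RNA transcription, of -1.07. Fau, which encodes a small subunit protein under a name outside the rule, was called lower at -0.64. Of the mitochondrial ribosomal proteins 3 of 61 were called lower and 1 higher in young mice, and their median change of -0.17 was near that of all genes.

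Different probes of the same gene gave nearly the same change. For the 59 members with at least 2 probes well above background on all arrays (160 probes), the brightest and the next brightest probe correlated across genes with Pearson's r 0.90 and Spearman's rho 0.91 for the change in young mice, a description across genes that share the same 12 arrays. Within a gene the changes spanned a median of 0.0816, and under 0.2 for 47 of 59 genes, whereas between genes the brightest probes spanned 1.18. The 4 probes of Rps27 ranged from -1.21 to -1.13, and the 3 probes of Rps15 from -1.11 to -1.05. The widest span was that of Rps24, at 1.15, where 1 dimmer probe rose by 0.40. For Rpl15 the second probe, at -0.08, stood apart from the brightest one, at -0.82.

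Cell type markers moved with these changes in young mice. All 10 B cell markers were called lower (median -2.40, mean level per mouse 5.82 to 6.14 in control and 3.14 to 4 in irradiated mice), as were 7 of 10 T cell markers (median -1.12, 5.16 to 5.74 against 3.28 to 5.04) and 5 of 10 red cell markers (median -1.30, 10.2 to 11.41 against 8.33 to 10.19). All 8 platelet markers were called higher (median 1.82, 7.84 to 8.74 against 8.91 to 10.83), and 4 of 11 neutrophil markers were (3.7 to 4.75 against 4.55 to 5.46). Monocyte markers lay at 5.09 to 5.76 and 6.1 to 6.64, with 3 of 8 called higher and 1 lower. Hepatocyte markers lay at 0.83 to 7.59 and 1.92 to 11.68, with 0 of 6 called. Their part in the fall of ribosomal protein mRNA was not tested.

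The count of members called in young mice was lower when slide was taken into account, and it changed with the scaling. With slide as a block 24 of 77 members were called lower, beside 5.69% of all genes. Within the slide that held 2 mice of each group 0 were, beside 0.343%, at a median change of -0.81 (all genes -0.23). The other slides of young mice held only control or only irradiated mice. In both fits the change thus rests on the same 2 mice of each group, so these counts cannot tell slide from fewer mice. With quantile normalisation 15 of the 28 members tested were called lower (22.6% of all genes), in the authors' normalised values 21 of 54 (13.9%), and after normexp background correction 0 of 79 (0.416%), where the median SD of the members in unirradiated young mice was 1.63 in place of 0.212.

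**Figure D3:**
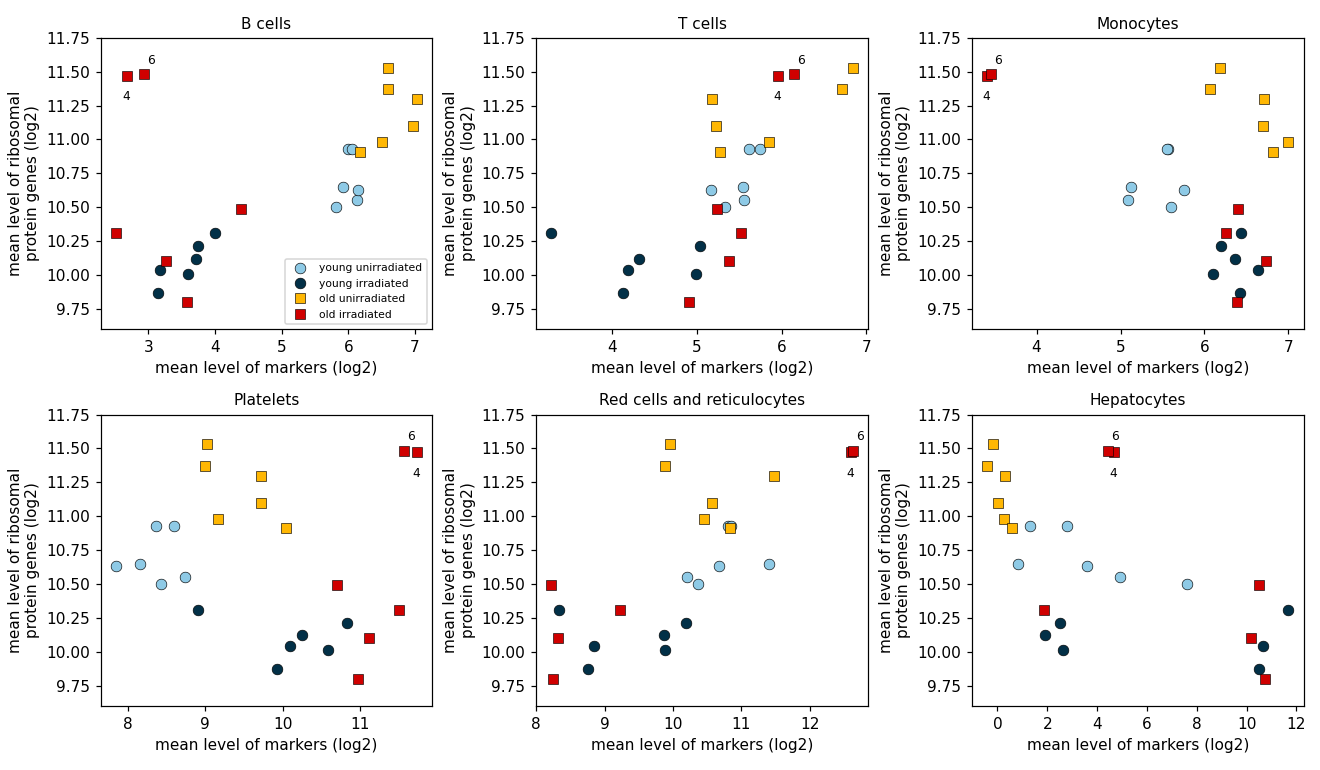
Mean level of the ribosomal protein genes (vertical axis, log2) against the mean level of the markers of 6 cell types (horizontal axes, log2) in each of the 24 mice, with old irradiated mice 4 and 6 numbered. In the red cell panel these 2 mice lie at 12.61 and 12.63, to the right of every other mouse, and in the monocyte panel at 3.41 and 3.46, to the left of every other mouse.

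In old mice, 15 of 77 members were called lower after irradiation (9 large, 6 small), close to the 17.4% of all genes called lower. For calls of higher levels it was 0 members, and 1327 of all 17472 genes tested. Leaving out old irradiated mice 4 and 6, 65 members were called lower (40 large, 25 small), where 22.8% of all genes were. The median log2 change was -0.62 with all mice (all genes -0.25) and -1.09 without those 2 (all genes -0.30). For the large subunit it went from -0.60 to -1.05 and for the small subunit from -0.67 to -1.12. With all mice, 13 members had every irradiated mouse below every control mouse, near the 16.8% of all genes, and 73 of 77 changes were below 0. An unadjusted p below 0.05 was found for 32 of the 77 members and for 7841 of all 17472 genes tested. Over all members the level was 11.2 ± 0.24 (SD, n = 6) in old control mice, 10.61 ± 0.709 (SD, n = 6) in all old irradiated mice and 10.18 ± 0.295 (SD, n = 4) without mice 4 and 6.

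With all 6 irradiated mice, the largest called falls in old mice were those of Rpl14, Rps18 and Rpl3. This order rests in part on mice 4 and 6, without which Rps18 (-1.49) was followed by Rps15 (-1.46) and Rps4x (-1.42), Rpl3 (-1.35) was the 7th and Rpl14 (-1.24) the 19th of 78. Rpl14, a large subunit protein, lay at 11.42 to 12.5 (median 11.86) in control and at 9.39 to 11.09 (median 10.47) in irradiated old mice. The groups were separate, mice 4 and 6 were the lowest of all at 9.59 and 9.39, and the fall was 3.09-fold (SE 0.323 on the log2 scale, limma adjusted p = 0.00286). All 3 probes of Rpl14 gave changes of -1.63 to -1.55.

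Rps18, in the head of the small subunit like Rps15, lay at 9.78 to 10.63 (median 10.11) in control and at 8.16 to 9.15 (median 8.52) in irradiated old mice. These ranges did not overlap, and Rps18 fell by 1.62 (SE 0.261, limma adjusted p = 0.00103). Rpl3 lay at 10.01 to 10.79 (median 10.22) and at 8.46 to 9.39 (median 8.79), again without overlap, and fell by 1.51 (SE 0.248, limma adjusted p = 0.0011). The other 12 members called had log2 changes from -1.26 for Rpl18 to -0.90 for Rpl4, and included Rpl11 (-1.05), Rpl12 (-1.02), Rps4x (-1.13) and Rps27 (-1.03).

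Mice 4 and 6 split the members in the same way. Against the 6 old control mice, 37 of 78 members lay above every control mouse in both of them (23 large, 14 small) and 14 lay below every control mouse in both (7 large, 7 small). In the other 4 irradiated mice, 64 to 77 of the 78 members lay below every control mouse. These counts were made for the members only. Over all genes the median level was 2.47 and 2.49 in mice 4 and 6, against 2.95 to 3.12 in control. Whether the members left the control range more often than other genes was not tested. Relative to the mean of the control mice, the members in mice 4 and 6 had a median difference of 0.38 (range -2.4 to 1.84), while the mean of the other 4 mice had a median of -1.09 (range -1.49 to 0.08). The 2 mice followed each other closely across the 78 members, with r 0.98, a description over genes of 2 arrays on the same slide.

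Rplp0, Rpl41 and Rpl28 were the members farthest above control in mice 4 and 6, and Rpl14, Rps18 and Rpl3 the farthest below; these were chosen after their values were seen. Rplp0 stood 1.88 and 1.69 above the control mean, whereas the other 4 irradiated mice averaged -0.88. Rpl41 stood 1.81 and 1.88 above it, with the other 4 at -0.21, and Rpl28, another large subunit protein, 1.70 and 1.75 above it, with the other 4 at -1.08. For Rpl14 the differences were -2.29 and -2.5, with the other 4 at -1.24. Since the old change averages over all 6 irradiated mice, members lowest in these 2 mice are also among its largest falls.

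**Figure D4:**
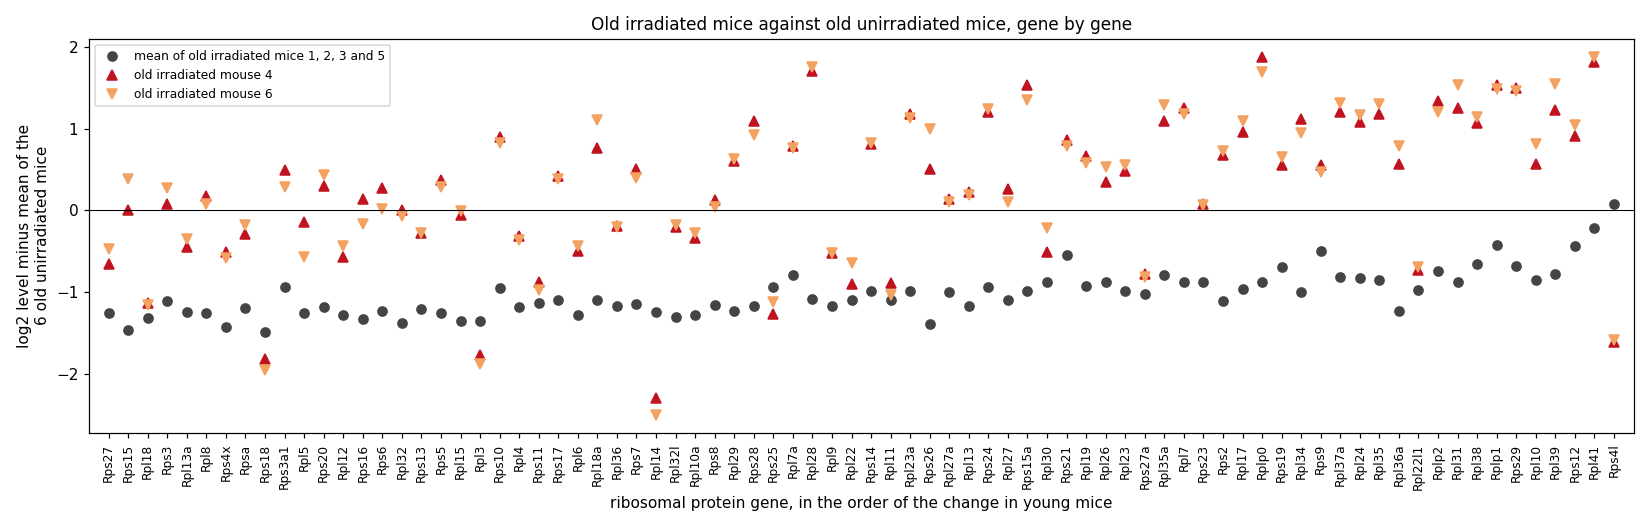
Log2 level minus the mean of the 6 old unirradiated mice (vertical axis) for 78 members (horizontal axis, in the order of the change in young mice), as the mean of old irradiated mice 1, 2, 3 and 5 and for mice 4 and 6 singly. The mean of the 4 mice ran from -1.49 to 0.08, while mice 4 and 6 spread on both sides of 0, with Rpl14 lowest and Rplp0 and Rpl41 highest.

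Without mice 4 and 6, further members were called in old mice. Rps15 had a log2 change of -1.46 with an SE of 0.207 (limma adjusted p = 0.000449) in place of -0.90 (adjusted p = 0.0789). Rpsa had one of -1.19 (limma adjusted p = 0.000256) in place of -0.87 (adjusted p = 0.0201), and Rpl5 one of -1.26 (limma adjusted p = 0.00607) in place of -0.96 (adjusted p = 0.0415). In the stalk, Rplp0 at -0.88 (limma adjusted p = 0.00217) and Rplp2 at -0.74 (limma adjusted p = 0.00731) were then called beside Rpl12, and Rplp1 at -0.42 (adjusted p = 0.0598) was not. Of the head of the small subunit 11 of 12 were called in place of 3, of the platform and mRNA exit 5 of 6 in place of 0, of the peptide exit site 5 of 7 in place of 0, and of the Diamond-Blackfan anemia genes 15 of 18 in place of 3. Over all members it was 65 of 77 in place of 15. The 12 members tested and not called then were Rpl22, Rpl31, Rpl35a, Rpl39l, Rpl41, Rpl7l1, Rplp1, Rps19, Rps21, Rps23, Rps4l and Rps9.

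Other genes of the pathway were also compared with and without mice 4 and 6, where 17.4% and 22.8% of all genes were called lower. Ribosome biogenesis factors were called lower for 33 of 36 in old mice (median -1.56), and for 31 without those mice (median -1.22). The TOP mRNAs that are not ribosomal proteins gave 7 of 16 with all mice (median -0.67) and 12 of 16 without them (median -1.03). For the mitochondrial ribosomal proteins 36 of 61 were called lower (median -1.14), and 30 without them (median -0.79). Regulators of TOP mRNAs gave 4 of 11 lower either way, but with all mice these included Rptor, which lost its call without mice 4 and 6, and without them Mtor, which gained one. Eif4ebp1, called higher with all mice (log2 change 0.95, limma adjusted p = 0.0188), was not called without them (0.80). Cdkn1a had a log2 change of 3.96 with all mice and 3.88 without mice 4 and 6, and Phlda3 of 2.15 and 2.56.

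In mice 4 and 6 the markers of red cells lay at 12.61 and 12.63, against 8.22 to 9.23 in the other 4 irradiated and 9.89 to 11.48 in the control old mice. Their monocyte markers lay at 3.41 and 3.46, against 6.26 to 6.73 in the other 4 and 6.06 to 7 in control. B cell markers were at 2.51 to 4.39 over all old irradiated mice and at 6.17 to 7.03 in control (9 of 10 called lower), and platelet markers at 10.7 to 11.74 and 9 to 10.04 (8 of 8 called higher). T cell markers were at 4.9 to 6.15 and 5.18 to 6.84 and neutrophil markers at 5.65 to 7.77 and 5.24 to 7.11, with 0 called in either. Hepatocyte markers lay at 4.67 and 4.42 in mice 4 and 6, and at 1.86, 10.16, 10.48 and 10.74 in irradiated mice 1, 2, 3 and 5. In control they lay at -0.42 to 0.58, and 6 of 6 were called higher with or without mice 4 and 6. The part of these cells, and of the low signal of the 2 arrays, in the values of the members was not tested.

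Between subunits, the large minus small mean in old mice was 0.123 ± 0.0403 (SD, n = 6) in control and 0.175 ± 0.103 (SD, n = 6) in irradiated mice. Without mice 4 and 6, which had the highest values at 0.267 and 0.298, it was 0.122 ± 0.0776 (SD, n = 4). The shift of 0.0523 was within the spread of the irradiated mice. Over the members in the table of the authors' normalised values it was -0.137 in those values and -0.205 in the processed signals of the same members. Within the slide that held 2 old mice of each group 5 members were called lower, beside 6.23% of all genes, at a median of -1.21 (all genes -0.11). With slide as a block 0 were, beside 0.836%. Both fits take the change from the same 2 old mice of each group, since the other slides of old mice held only control or only irradiated mice. The count of 15 also moved when 1 mouse was left out, to 7 to 9 without old control mouse 1, 3, 5 or 6 or irradiated mouse 1, 2 or 5, and to 23 without irradiated mouse 6.

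The order of the members was alike at both ages, in comparisons that share no mouse. Across 78 members the log2 changes in young and in old mice had r 0.62 and rho 0.73, and r 0.84 and rho 0.80 without mice 4 and 6, as a description across genes. Rpl41, Rps12, Rplp1 and Rps4l were among the 7 smallest falls or rises at both ages without mice 4 and 6, with changes in old mice of -0.21, -0.43, -0.42 and 0.08. At the other end, Rps15, Rps4x, Rps18 and Rpl18 were among the 9 largest falls at both ages.

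Whether radiation changed the members differently in old and young mice was asked with the age by radiation interaction over all 24 arrays. No member was called by limma, and 0% of all genes tested were. Without mice 4 and 6 it was 0 members again, beside 0.149% of all genes. With all mice 5 members had an unadjusted p below 0.05, as did 4116 genes, and the lowest adjusted p of a member was 0.147, that of Rpl3. Over the members the median of the change in old minus that in young mice was 0.09, with 34 of 77 below 0, and it turned to -0.41 without mice 4 and 6 (all genes -0.24 and -0.13). For Rpl3 the change in old minus that in young mice was -0.70 (SE 0.268), and for Rpl14 it was -0.91 (SE 0.352, limma adjusted p = 0.15). Rps4l, higher in young irradiated mice, had an interaction of -1.37 (SE 0.548, limma adjusted p = 0.156). The random variance test also called 0 members.

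Old control mice had higher levels than young control mice on the scale of the array median, but so did most genes, and on every other scaling tried no member was called higher. On the array median, 37 of 77 members were called higher (22 large, 15 small), the share of all genes called higher being 48.2%. For 23 members (14 large, 9 small) every old mouse lay above every young mouse, beside 37.4% of all genes. The members had a median change of 0.53 and all genes one of 0.63, a difference of -0.10. After scaling to the 75th percentile, after quantile normalisation, with the array median taken over bright probes only, after normexp and in the authors' normalised values, 0 members were called higher, and in the authors' values 3 of 54 were called lower. With the 75th percentile the median over all genes was -0.02 and that over the members 0.03.

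Rpl14 had the largest difference on the array median, at 10.73 to 11.19 (median 10.92) in young and 11.42 to 12.5 (median 11.86) in old control mice. The groups were separate, and the log2 difference was 0.95 (SE 0.179, limma adjusted p = 0.000382). Rpl29, of the large subunit, lay at 10.75 to 11.26 (median 10.95) and 11.29 to 12.45 (median 11.86), also without overlap, and differed by 0.91 (limma adjusted p = 0.000805). Rpl10 lay at 11.62 to 12.19 (median 11.74) and 12.39 to 13.09 (median 12.72), again separate, and differed by 0.88 (limma adjusted p = 0.00032). Rpl41 had a difference of -0.14 (adjusted p = 0.498), and its ranges overlapped.

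Between irradiated old and irradiated young mice, 0 members were called by limma, where 2.00% of all genes were. Of the 77 members 19 had an unadjusted p below 0.05, as did 3733 of all 17472 genes tested. The lowest adjusted p of a member was 0.0892, that of Rps4l at -1.46. The median difference was 0.55 (all genes 0.20). Without mice 4 and 6 it was 0.12 (all genes 0.34), with 0 members called beside 28.5% of all genes. Rpl18 lay at 8.73 to 9.21 in young and 9.26 to 9.67 in old irradiated mice, which did not overlap, with a difference of 0.61 that was not called (adjusted p = 0.125).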

How the data were processed

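Scanner intensities (Cy3, Agilent mouse arrays) were deposited as the authors' processed signals, background-subtracted by Feature Extraction 12.0.2 per the submitters' processing notes. Here log2 of the processed signal minus the median of each array over 43020 non-control spots was used. The authors' normalised table, deposited as log2 values of unknown centring (array medians 5.77 to 6.73), correlated with these at r 0.995 to 1 and served as an alternative. Probes marked non-uniform or not significantly positive on 25% or more of arrays were left out, the brightest probe stood for a gene, and genes had to lie 1.5-fold from their median on at least 20% of arrays (5 of 24). Groups came from the sample titles. Comparisons used limma 3.58.1 in R 4.3.3 on 12 arrays each, and the interaction on 24. Scripts were tested on simulated data. Members and gene lists were chosen with earlier results of these data known.

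Members named were, per comparison, the 3 largest called rises and falls, the 3 brightest of each subunit, the stalk and 5S proteins, Rpsa, paralogs with their parents, and members not tested; Rpl28 and the other lists' examples were chosen later. The value of Rpl21 was missing on young unirradiated array 4. Probes can also bind transcripts of processed pseudogenes, which was not tested. The number of arrays limits the precision, and the p-values measure the spread between these mice. By the spread of log2 differences, the most alike mice within a group were young irradiated 2 and 5 (0.147), old unirradiated 1 and 6 (0.149) and young irradiated 1 and 6 (0.2). All were counted as separate mice, as labelled. If a pair were not separate mice, the SDs and p-values would rest on fewer mice, which was not tested. Alternatives covered scaling, filters, tests, blocks and left-out mice.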

Additional observations from a re-analysis of the deposited data

Results flagged for a closer look

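Among 33 member and mean values in the 4 groups (132 groups of 6 mice), 4 had 1 mouse far from the other 5 by Dixon's test. Chance alone gives about 1 in 20 groups, so 4 of 132 is below that share. The test looks for 1 mouse apart and can miss mice that lie together, such as old irradiated mice 4 and 6. The values also share the same mice, so the low count does not show that far mice are rare. Rpsa was at 11.73 in young irradiated mouse 4 and at most 11.03 in the others, and Rps15 was at 10.8 in the same mouse and at most 10.04 in the others. Leaving that mouse out, the log2 change of Rps15 went from -1.08 to -1.24. Rpl39l was at 0.21 in young irradiated mouse 3, the next being -0.52. Rpl22l1 was at 7.07 in old unirradiated mouse 4, the next being 7.82.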

How the results depend on the processing

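Leaving out old irradiated mice 4 and 6, taking slide into account and changing the scaling each moved the counts of members called. The number of members tested and the share of all genes called also changed with the setting. A count below therefore does not by itself show a change particular to the members. Counts of members called lower in young mice (53) were 15 with quantile normalisation, 0 with normexp with or without the 1.5-fold filter, 21 in the authors' normalised values with or without it, 26 in 1 fit of all 24 arrays, 24 with slide as a block, 0 within the shared slide, and 44 to 57 leaving out 1 mouse. In old mice the count (15) was 4 with the 75th percentile or the median over probes well above background, 6 with either when the 1.5-fold filter was dropped too, 33 with quantile normalisation without that filter, 0 with normexp either way, 23 in the authors' values either way, 29 in 1 fit of all arrays, 0 with slide as a block, 5 within the shared slide, 65 without mice 4 and 6, and 7 to 23 leaving out 1 mouse, 7 without old control mouse 1 or 6 or irradiated mouse 2 or 5, 9 without control mouse 3 or 5 or irradiated mouse 1, and 23 without irradiated mouse 6. Between control ages (37) it was 0 under every other scaling with or without the filter, 13 in 1 fit of all arrays and 26 to 49 leaving out 1 mouse. Between irradiated ages (0) it was 10 in 1 fit of all arrays, 1 with slide as a block and 1 with the 75th percentile without the filter or the median over bright probes with or without it. Leaving out 1 mouse gave 0 there and in the interaction. With the replicate block the counts were 34, 7 and 22, and 0 in the other 2 comparisons; replicate numbers did not pair the mice, since 12 of 24 pairs had a correlation of deviations over 0.1 (range -0.598 to 0.583) and 6 arrays correlated best with their own number.

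The median of the members relative to all genes in young mice (-0.44) was -0.25 with normexp, -0.68 without the filter on dim probes, -0.19 with quantile normalisation and -0.07 with normexp when the 1.5-fold filter was dropped, and -0.53 to -0.40 leaving out 1 mouse. In old mice (-0.37) it was -0.58 to -0.25 leaving out 1 mouse, the former without irradiated mouse 4. Between control ages (-0.10) it turned to 0.24 without the filter on dim probes, and between irradiated ages (0.35) to -0.39 with quantile normalisation, with 0.11 (without old irradiated mouse 4) to 0.55 (without mouse 5) leaving out 1 mouse. The large minus small shift turned to -0.0468 (young) and -0.137 (old) in the authors' values, and it was -0.0363 and -0.205 in the processed signals of the same 49 members. The 9 genes with the largest called changes kept their direction, each in its own comparison, under every setting in which they passed the filters. Rpl10 and Rpl29 did not pass them in every setting. In old mice Rpl41 (0.48 to -0.21), Rplp1 (0.22 to -0.42), Rplp0 (0.01 to -0.88), Rps12 (0.04 to -0.43), Rps29 (0.04 to -0.68) and Rps4l (-0.48 to 0.08), which were not called or not tested with all mice, turned without mice 4 and 6. Settings without mice 4 and 6 and those that dropped the 1.5-fold filter with a scaling were chosen after seeing the data. The causes were not tested, other than that fewer members were tested with quantile normalisation and in the authors' values.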
